A study of Mus musculus with 1600 samples.

Results

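The slit diaphragm is the cell junction that bridges the filtration slits between the interlocking foot processes of podocytes, the epithelial cells on the outer face of the glomerular capillary. Extracellular domains of nephrin and the Neph proteins span the slit, and cytoplasmic scaffold proteins tie them to the actin cytoskeleton and to signalling enzymes. Inherited defects of several of these genes cause nephrotic syndrome or podocyte scarring in humans. The 9 genes described here, out of 45792 measured, were chosen by name: the junction proteins Nphs1 (nephrin) and Kirrel (Neph1), the adaptors and scaffolds Cd2ap, Magi2 and Tjp1 (ZO-1), the tyrosine phosphatase Ptpro, phospholipase C epsilon (Plce1), the calcium channel Trpc6 and the membrane protein Thsd7a. All 9 were present in both count tables.

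The RNA came from cells captured on Fluidigm C1 arrays, microfluidic chips whose chambers are imaged before lysis to count the cells in each. All animals were 10-week-old C57BL/6 mice that lacked endothelial nitric oxide synthase (Nos3-/-), so that no mice with intact Nos3 were compared. Diabetes had been induced with streptozotocin, which kills the insulin-secreting cells of the pancreas, in 5 daily doses of 50 µg/g given from 8 weeks of age, and the control group had received citrate vehicle. Glomerular cells of 3 mice were pooled per condition in each of 2 experiments, which gave 2 diabetes pools and 2 control pools; below, values of a condition are given for replicate 1 and then replicate 2. The question set by this design is which genes differ in glomerular cells early in this form of diabetes. Pools, not wells, are the replicates. The p-values rest on the spread between 2 pools a condition, moderated by a spread shared over genes.

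Of 833 wells imaged with 1 cell, 639 passed the filters (128 and 188 of the diabetes pools, 120 and 203 of the control pools), with 6723395 and 37973663 reads on genes in the diabetes pools and 4763756 and 48389746 in the control pools. Clustering without the 9 genes and their partners gave 68 podocyte-like wells, 333 endothelial-like, 138 mesangial-like and 74 immune-like ones, with 12 like smooth muscle or renin cells and 14 tubular-like. The mice are described as sex-matched, yet Xist, the transcript of the inactive X chromosome, was at 1.42 and 1.4 CPM (reads of a gene per 1000000 reads on genes) in the diabetes pools, against 356 and 442 CPM in the control pools. The summed level of 4 Y-linked genes was 154 and 159.7 CPM in the diabetes pools, against 0.279 and 0.605 CPM in the control pools. Sex-linked expression therefore went with the condition in both experiments, and diabetes and sex cannot be told apart in any difference below.

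The promoters of the genes differed in base composition. In RefSeq windows of 300 bases on GRCm38.p6 (250 before and 50 after the annotated start), CpG dinucleotides numbered 6 for Nphs1, 5 for Ptpro and 8 for Plce1, close to the median of 7 over 32851 such windows. Those of Cd2ap, Tjp1 and Kirrel held 41, 31 and 28. Thsd7a had 19 and Trpc6 17, and the 2 windows of Magi2 had 29 and 4. The windows of Nphs1 (plus strand, chr7:30459808-30460107) and Ptpro (plus strand, chr6:137252049-137252348), whose levels per class were by far highest in podocyte-like wells, are set here beside those of Cd2ap (minus strand, chr17:42876375-42876674) and Tjp1 (minus strand, chr7:65371195-65371494), which were read in all the main cell classes. Sequences run 5′ to 3′ on the gene's strand, and capitals mark the GC box GGGCGG and the E-box CAGCTG on either strand.

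Nphs1: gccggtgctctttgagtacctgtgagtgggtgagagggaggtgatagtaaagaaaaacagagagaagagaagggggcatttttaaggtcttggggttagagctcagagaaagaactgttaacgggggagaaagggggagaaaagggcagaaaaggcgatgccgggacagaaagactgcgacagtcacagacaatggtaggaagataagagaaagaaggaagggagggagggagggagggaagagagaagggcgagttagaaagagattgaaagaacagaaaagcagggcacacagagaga
Ptpro: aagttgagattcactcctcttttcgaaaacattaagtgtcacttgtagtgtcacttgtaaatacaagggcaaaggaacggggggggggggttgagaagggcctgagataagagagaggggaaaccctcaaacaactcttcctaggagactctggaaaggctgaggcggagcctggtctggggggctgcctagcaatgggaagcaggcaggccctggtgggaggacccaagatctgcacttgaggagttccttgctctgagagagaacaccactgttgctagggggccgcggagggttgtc
Cd2ap: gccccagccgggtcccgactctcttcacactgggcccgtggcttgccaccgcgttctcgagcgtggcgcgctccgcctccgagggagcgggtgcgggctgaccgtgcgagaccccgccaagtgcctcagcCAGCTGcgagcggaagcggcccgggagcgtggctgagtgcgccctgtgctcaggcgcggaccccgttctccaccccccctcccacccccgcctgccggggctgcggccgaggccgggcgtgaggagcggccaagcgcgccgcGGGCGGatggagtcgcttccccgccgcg
Tjp1: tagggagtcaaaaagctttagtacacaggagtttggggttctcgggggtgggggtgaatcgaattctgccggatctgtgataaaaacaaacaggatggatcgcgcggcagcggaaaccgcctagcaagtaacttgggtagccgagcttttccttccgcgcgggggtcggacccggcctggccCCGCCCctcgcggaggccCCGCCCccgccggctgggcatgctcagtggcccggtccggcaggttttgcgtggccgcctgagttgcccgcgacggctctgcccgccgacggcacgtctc

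The GC box was found in 5 of the 10 windows of the 9 genes (Kirrel, Cd2ap, Tjp1, Thsd7a and 1 of Magi2), against 35.7% of all windows. The E-box was found in 3 (Cd2ap, Thsd7a and 1 of Magi2), against 16.3%. The motif TAATTA was in 1 window of Magi2, against 5.29%, and TATAAA was in none, against 13.6%. These are matches of letters and carry no evidence of binding. The RefSeq starts of Nphs1, Tjp1 and Plce1 lie inside the longer gene spans of GENCODE M21 (same build), which place Nphs1 at chr7:30458315-30487223, Tjp1 at chr7:65296165-65527781 and Plce1 at chr19:38481109-38785030. Kirrel lies at chr3:87078593-87174747, Cd2ap at chr17:42792951-42876665, Magi2 at chr5:19227036-20704792, Ptpro at chr6:137252319-137463233, Trpc6 at chr9:8544142-8680741 and Thsd7a at chr6:12311610-12749410. GENCODE also annotates the antisense gene Nphs1os over Nphs1 and Gm28991 over Plce1, and no source used here gives whether reads were counted by strand. Kirrel2, another Neph protein, lies head to head with Nphs1, with 625 bases between the starts that GENCODE gives. The Nphs1 window printed above lies further from Kirrel2, around the RefSeq start.

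Podocyte-like wells held the highest level of 8 of the 9 genes among the 4 largest classes, taking the median over pools with at least 5 wells. The exception was Trpc6. This order describes the data and was not tested, since genes of a cell type go together in clustering. In podocyte-like wells Nphs1, the adhesion molecule at the centre of the junction, was at 789.9 and 799 CPM in the diabetes pools, against 1517 and 1356 CPM in the control pools. Diabetes replicate 1 held a single podocyte-like well, of 18473 reads, so its podocyte-like values rest on 1 cell. Both diabetes values of Nphs1 lay below both control values. The share of all genes in that order was not computed for these wells. With no filter on wells it was 30.3% of the genes tested in this class. In endothelial-like wells Nphs1 was at 1.2 and 15.2 CPM in the diabetes pools, against 11.2 and 11.5 CPM in the control pools, and in mesangial-like wells at 0 and 43.7 CPM in the diabetes pools, against 22.5 and 21 CPM in the control pools. Nphs1 was read in all 68 podocyte-like wells.

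Kirrel, the Neph protein that pairs with nephrin across the slit, was found in a second cell class. Podocyte-like wells had 54 and 66.7 CPM in the diabetes pools, against 55 and 82.1 CPM in the control pools. Mesangial-like wells had 106 and 23.3 CPM in the diabetes pools, against 55.4 and 13.3 CPM in the control pools, so the 2 classes overlapped over pools. Endothelial-like wells stayed between 0.325 and 2.56 CPM. In diabetes replicate 2, 1 well gave 57% of the podocyte-like Kirrel reads.

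The intracellular scaffolds were less restricted. In podocyte-like wells Cd2ap, the adaptor that links nephrin to actin and endocytosis, was at 1187 and 636 CPM in the diabetes pools, against 843 and 529 CPM in the control pools. Its level in mesangial-like wells was 42.9 and 140.2 CPM in the diabetes pools, against 276 and 213 CPM in the control pools. For endothelial-like wells the values were 116 and 91.4 CPM in the diabetes pools, against 96.5 and 91.9 CPM in the control pools. Every podocyte-like value of Cd2ap was above every value of those 2 classes. Tjp1, a scaffold of tight junctions, also lies under the slit diaphragm. Podocyte-like wells read Tjp1 at 0 and 331 CPM in the diabetes pools, against 513 and 367 CPM in the control pools. The 0 is that of the lone well of diabetes replicate 1. Endothelial-like wells, the nearest class, read it at 264 and 238 CPM in the diabetes pools, against 311 and 289.7 CPM in the control pools. Magi2, a membrane-associated scaffold that binds nephrin, was by contrast far higher in podocyte-like wells than in the other main classes. Its podocyte-like level was 593 and 463 CPM in the diabetes pools, against 692 and 724 CPM in the control pools. It stayed at or under 32.6 CPM in endothelial-like, mesangial-like and immune-like wells. The 5 smooth muscle or renin cell-like wells of control replicate 2 had 59.2 CPM. In diabetes replicate 1, mesangial-like wells held 56.8% of its 30.1 reads in kept wells and the lone podocyte-like well 36.5%.

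The signalling genes came next. Ptpro, a receptor-type tyrosine phosphatase of the podocyte surface (GLEPP1), had a podocyte-like level of 4208 and 1958 CPM in the diabetes pools, against 1384 and 2573 CPM in the control pools. Immune-like wells formed its second class, with 152 and 185 CPM in the diabetes pools, against 64.1 and 183 CPM in the control pools. Endothelial-like and mesangial-like wells ranged from 1.62 to 58.8 CPM. Plce1 is an enzyme that splits membrane phosphoinositides. Its podocyte-like level was 1403 and 935 CPM in the diabetes pools, against 624 and 579.8 CPM in the control pools. The 1403 CPM comes from 26 reads in 1 well. With no filter on wells Plce1 was at 324 and 590.4 CPM in the diabetes pools, against 555 and 597 CPM in the control pools. There the conditions overlapped. Thsd7a is a foot process protein known as an autoantigen of human membranous nephropathy. Its level in kept podocyte-like wells was 2374 and 886 CPM in the diabetes pools, against 1793 and 1284 CPM in control pools. The conditions overlapped. In endothelial-like, mesangial-like and immune-like wells Thsd7a did not pass 48.4 CPM.

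Trpc6, a calcium channel known for gain-of-function mutations in human podocyte disease, was almost unread in podocyte-like wells. Only 2 of the 68 wells held a read, and they held 1 read in diabetes replicate 2 and 2 reads in control replicate 2. Mesangial-like wells had 0 and 54.5 CPM in the diabetes pools, against 11.6 and 38.1 CPM in the control pools. The wells with a read numbered 0 and 6 in the diabetes pools, against 3 and 13 in the control pools. A single well carried 61.6% of these reads in diabetes replicate 2, 80% in control replicate 1 and 70% in control replicate 2. The 5 smooth muscle or renin cell-like wells of control replicate 2 had 97.4 CPM. At this depth, Trpc6 in podocytes was not detectable above the limit set by 3 reads, which was 0.402 CPM in the podocyte-like wells of control replicate 2.

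**Figure D1:**
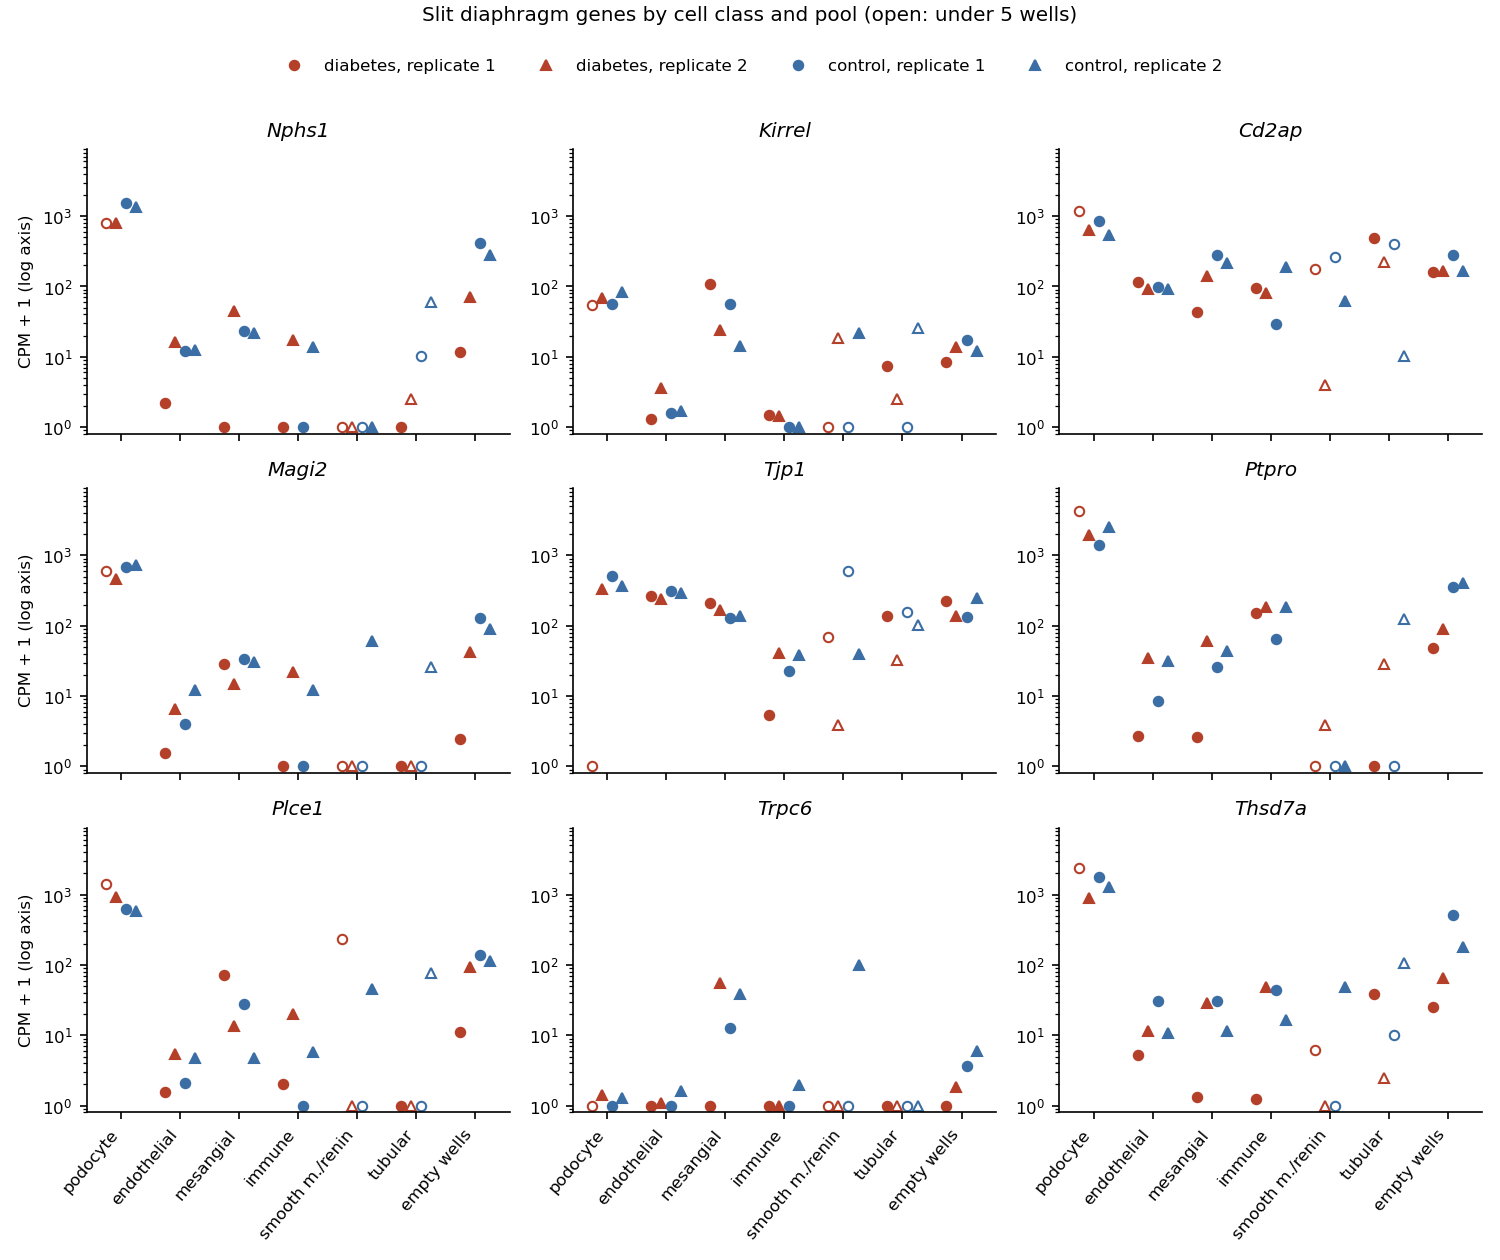
Summed level of each slit diaphragm gene by cell class and in wells imaged empty, as CPM + 1 on a log axis, with diabetes pools (red) left of control pools (blue), circles for replicate 1, triangles for replicate 2 and open symbols for fewer than 5 wells. Nphs1, Magi2, Ptpro, Plce1 and Thsd7a stand highest in podocyte-like wells, Cd2ap and Tjp1 are read in the other main classes too, and Kirrel also in mesangial-like wells. Trpc6 is highest in the smooth muscle or renin cell-like wells of control replicate 2 and is also read in mesangial-like wells of all pools but diabetes replicate 1.

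Most reads of the restricted genes came from few wells. The podocyte-like share of all Nphs1 reads in kept wells was 77.2% and 72.6% in the diabetes pools, against 97.3% and 94.4% in the control pools. For Ptpro it was 20.2% and 67.9% in the diabetes pools, against 96.8% and 92.6% in the control pools. In diabetes replicate 1, immune-like wells supplied 78% of the Ptpro reads. Endothelial-like wells held shares of the Tjp1 reads of 83% and 72.1% in the diabetes pools, against 40.2% and 56.8% in the control pools, and podocyte-like wells 0% and 10.5% in the diabetes pools, against 43.4% and 24% in the control pools. The podocyte-like share of Tjp1 was the larger in control replicate 1 alone.

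Podocyte-like wells varied widely among themselves. In the 14 wells of diabetes replicate 2, the lowest, median and highest Nphs1 levels were 27.5, 507 and 2283 CPM. In the 22 and 31 wells of the control pools they were 64.2, 1443 and 2936 CPM and 47.3, 1006 and 7266 CPM. The lone well of diabetes replicate 1 lay inside those ranges. Thsd7a ran over 91.3, 369 and 4103 CPM in diabetes replicate 2, against 15.4, 1320.4 and 9245 CPM and 60.9, 1039 and 3921 CPM in the control pools. Medians of Ptpro were 1869.8 CPM in diabetes replicate 2, against 1051 and 2174 CPM in the control pools. Per well, the ranges of the conditions overlapped for each of the 8 genes plotted.

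**Figure D2:**
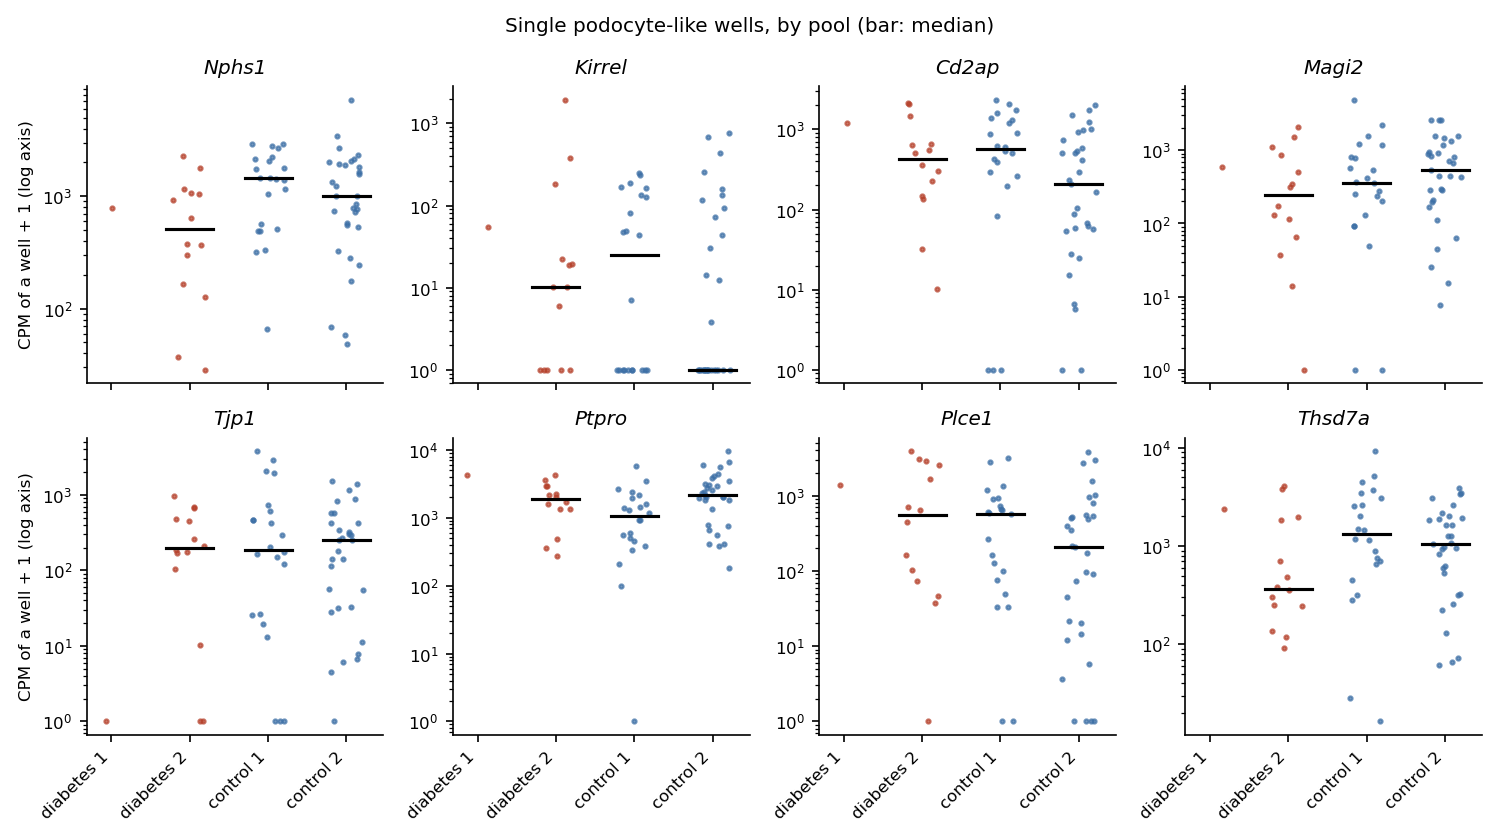
Level of 8 slit diaphragm genes in each podocyte-like well (1 and 14 wells of diabetes replicates 1 and 2, 22 and 31 wells of control replicates 1 and 2), as CPM of the well + 1 on log axes, with a bar at the median of each pool of more than 1 well. Wells of both conditions overlap for each gene, and Kirrel is at 0 in many wells.

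The number of the 9 genes read in a podocyte-like well had a median of 7 and 8 in the diabetes pools, against 7 and 7 in the control pools. After thinning each well to 10000 reads, the medians were 6 and 6 in the diabetes pools, against 7 and 6 in the control pools. Endothelial-like wells had medians of 1 and 3 in the diabetes pools, against 1 and 4 in the control pools. After thinning the endothelial-like median was 1 in all 4 pools. Across the 23 podocyte-like wells of experiment 1 and the 45 of experiment 2, Spearman correlations of CPM between pairs of the 8 genes other than Trpc6 had medians of 0.20 and 0.25 over 28 pairs. Nphs1 with Thsd7a gave 0.41 and 0.73, Nphs1 with Magi2 gave 0.53 and 0.43, and Magi2 with Thsd7a gave 0.51 and 0.61. Kirrel with Cd2ap gave -0.36 and -0.22. These describe wells that share an array and a depth, and they mix both conditions.

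Over the 17 sums of a class in a pool with at least 5 wells, 3 of them podocyte-like, likeness to Nphs1 was measured by the Pearson r of log2(CPM + 1) among 8462 genes. Among the 10 genes most like it were Sema3e (0.97), Clic3 (0.97), Tmem150c (0.97), Shisa3 (0.95), Rab3b (0.95), Robo2 (0.94), Tdrd5 (0.94), Wipf3 (0.93) and Srgap1 (0.93). Magi2 came 101st with 0.82, Ptpro 116th with 0.81 and Thsd7a 118th with 0.80. Further down, Plce1 had 0.76, Cd2ap 0.74, Tjp1 0.58 and Kirrel 0.49.

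Summed over all kept wells, every one of the 9 genes had a lower fitted level in diabetes than in control, and none passed the test of edgeR's quasi-likelihood fit with experiment as a block (Benjamini-Hochberg adjusted p under 0.05 over 15330 genes). The fit called 12 genes in all, which is 0.0783% of those tested. Nphs1 was at 2.82 and 68.7 CPM in the diabetes pools, against 396 and 222 CPM in the control pools, a log2 fold change of -4.13 ± 1.65 (SE; unadjusted p = 0.0579, adjusted p = 0.696). Magi2 was at 4.48 and 37.7 CPM in the diabetes pools, against 186 and 129 CPM in the control pools, with a log2 fold change of -3.41 ± 1.03 (SE; unadjusted p = 0.0206, adjusted p = 0.618). Thsd7a was at 10.8 and 73.4 CPM in the diabetes pools, against 477 and 209 CPM in the control pools, with a log2 fold change of -3.37 ± 1.18 (SE; unadjusted p = 0.0389, adjusted p = 0.673). In all 3, diabetes replicate 1 was far lower than diabetes replicate 2. Such sums do not separate fewer podocytes from less RNA per podocyte.

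The signalling genes had fitted changes nearer to 0 than Nphs1, Magi2 and Thsd7a. Ptpro was at 57.6 and 179.9 CPM in the diabetes pools, against 363 and 429 CPM in the control pools, with a log2 fold change of -1.89 ± 0.43 (SE; unadjusted p = 0.00365, adjusted p = 0.337). Plce1 was at 17.6 and 65.9 CPM in the diabetes pools, against 166 and 94.8 CPM in the control pools, with a log2 fold change of -1.80 ± 0.72 (SE; unadjusted p = 0.0439, adjusted p = 0.675). Trpc6 was at 0 and 9.19 CPM in the diabetes pools, against 3.15 and 16.7 CPM in the control pools, with -2.71 ± 1.96 (SE; unadjusted p = 0.212, adjusted p = 0.92). Its conditions overlapped, and without control replicate 2, in a fit without the block, its fitted change was 0.81. Of the genes shared with other cells, Cd2ap was at 125 and 133 CPM in the diabetes pools, against 348 and 198 CPM in the control pools, a log2 fold change of -0.96 ± 0.36 (SE; unadjusted p = 0.0343, adjusted p = 0.667). Kirrel was at 10.5 and 9.83 CPM in the diabetes pools, against 29.2 and 18.2 CPM in the control pools, with -1.12 ± 0.77 (SE; unadjusted p = 0.188, adjusted p = 0.899), and Tjp1 at 170.3 and 197 CPM in the diabetes pools, against 300.3 and 236 CPM in the control pools, with -0.48 ± 0.32 (SE; unadjusted p = 0.175, adjusted p = 0.889). The median log2 fold change of the 9 was -1.89, beside 0.050 for all genes tested and -2.94 for 14 podocyte markers outside the 9.

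Of the 9 genes, 5 had an unadjusted p under 0.05 in this fit, all of them lower in diabetes, against 3.11% of all genes tested. In 8 of 9 (all but Trpc6), both diabetes pools lay below both control pools in CPM, against 17.8% of all genes. DESeq2 on the same sums called Magi2 (adjusted p = 4.14e-05), Thsd7a (1.46e-05) and Ptpro (0.000437) lower, and it called 1.37% of all genes lower. Leaving out 1 pool at a time, without the block, leaves a lone pool in a condition, so only fitted changes are given here. The log2 fold change of Nphs1 then ran from -6.80 to -1.99 and that of Plce1 from -2.92 to -0.81.

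Podocyte-like wells were a smaller share of the wells in the diabetes pools. They made up 0.781% (1 of 128, 0.0198 to 4.28) and 7.45% (14 of 188, 4.13 to 12.2) of kept wells in the diabetes pools, against 18.3% (22 of 120, 11.9 to 26.4) and 15.3% (31 of 203, 10.6 to 21) in the control pools, with 95% exact Clopper-Pearson intervals in parentheses that cover counting error only. The differences were -17.6 percentage points in experiment 1 and -7.82 in experiment 2. The intervals of the conditions were apart in experiment 1 and overlapped in experiment 2. An exact permutation test of 2 pools against 2 cannot give a two-sided p under 0.333. The summed level of the 14 podocyte markers over all kept wells moved with the slit diaphragm genes: it was 1183 and 2974 CPM in the diabetes pools, against 9439 and 6631 CPM in the control pools. Immune markers, 12 genes, summed to 13431 and 1854 CPM in the diabetes pools, against 1296 and 320.2 CPM in the control pools. The part of either in the differences above was not tested. In podocyte-like wells themselves the podocyte markers summed to 34133 and 28658 CPM in the diabetes pools, against 32418 and 36034 CPM in the control pools.

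The slit diaphragm genes were also read in the 588 wells in which no cell was seen. In those wells Nphs1 was at 10.9 and 70.7 CPM in the diabetes pools, against 407 and 277 CPM in the control pools, close to its level in kept wells of the same pool in 3 of 4 pools. Thsd7a was at 24.6 and 65 CPM in the diabetes pools, against 505 and 180 CPM in the control pools, and Ptpro at 47.8 and 88 CPM in the diabetes pools, against 355 and 408 CPM in the control pools. In 7 of the 9 genes (all but Kirrel and Tjp1), both diabetes pools lay below both control pools in empty wells, against 14.5% of the genes. Trpc6 counts there on 0 and 4 reads in the diabetes pools, against 2 and 22 in the control pools. Cd2ap counts by a narrow margin, at 159 and 163.7 CPM in the diabetes pools, against 277 and 166.6 CPM in the control pools. The median empty well had 2397 and 32994 reads in the diabetes pools, against 2212 and 33610.4 in the control pools, and the median kept well 43577 and 176715, against 32222 and 219072. Low levels of Nphs1, Magi2, Ptpro, Plce1 and Thsd7a in endothelial-like wells stayed under those of empty wells in every pool.

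**Figure D3:**
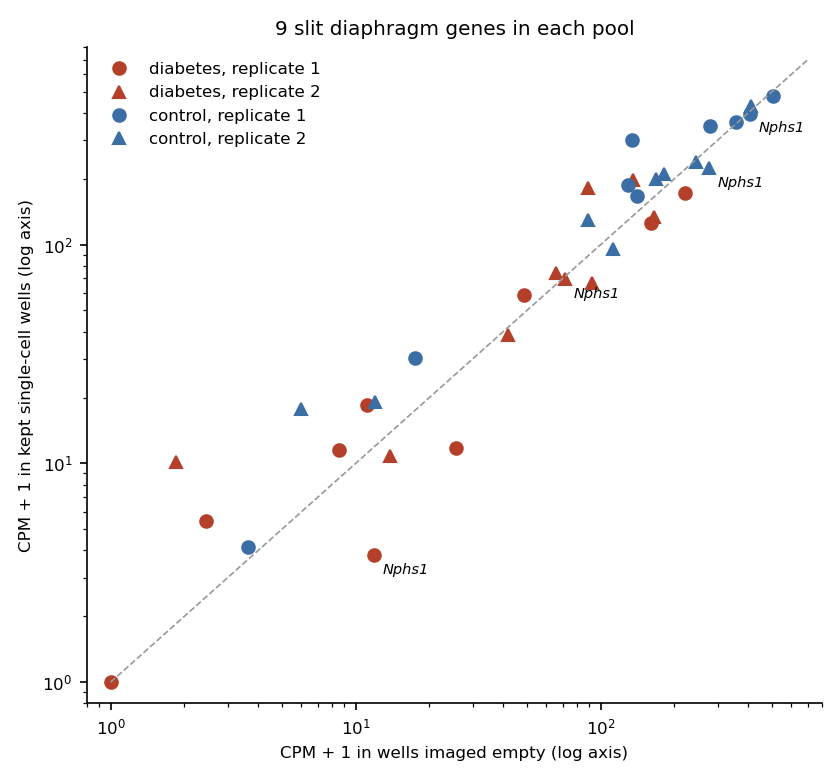
Level of each of the 9 slit diaphragm genes in wells imaged empty (x axis) and in kept single-cell wells (y axis) of the same pool, as CPM + 1 on log axes, with a dashed line at equality and Nphs1 named. Diabetes pools are red and control pools blue. Nphs1 lies near the line in 3 pools and below it in diabetes replicate 1 (2.82 CPM in kept wells and 10.9 CPM in empty wells).

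Whether the genes differed within podocytes could be tested only in part. The planned fit of podocyte-like kept wells needed at least 2 wells in each pool and could not be run. With no filter on wells the class held 4 and 23 wells in the diabetes pools and 44 and 31 in the control pools, and that fit called 0 of 8836 genes, which is 0%, with 180 genes at an unadjusted p under 0.05. DESeq2 called 14 genes there and no slit diaphragm gene. The fit tested 8 of the 9, Trpc6 having too few reads. Nphs1 was at 620 and 744 CPM in the diabetes pools, against 1315 and 1409 CPM in the control pools, a log2 fold change of -0.82 ± 1.2 (SE; unadjusted p = 0.495, adjusted p = 1). Magi2 was at 208 and 404 CPM in the diabetes pools, against 621 and 903 CPM in the control pools, with -1.19 ± 1.46, and Thsd7a at 1029 and 815 CPM in the diabetes pools, against 1647 and 1372 CPM in the control pools, with -0.53 ± 1.14. Tjp1 was at 57.8 and 271 CPM in the diabetes pools, against 436 and 361 CPM in the control pools, with -1.42 ± 1.92. In these 4 of 8 genes, both diabetes pools lay below both control pools, against 30.3% of the genes tested.

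Ptpro was at 1040.3 and 1613 CPM in the diabetes pools, against 1162 and 2686 CPM in the control pools, with a log2 fold change of -0.27 ± 1.07, and Plce1 at 324 and 590.4 CPM in the diabetes pools, against 555 and 597 CPM in the control pools, with -0.21 ± 1.45. Cd2ap had 0.57 ± 1.29 and Kirrel 1.01 ± 2.60, where a single well gave 95% of the Kirrel reads of diabetes replicate 1. Adjusted p was 1 for each of the 8 genes. Fits that left out 1 pool also left out the block. Without diabetes replicate 1 the sign turned for Cd2ap (-0.25), Kirrel (-0.15) and Plce1 (0.18), and without control replicate 2 for Ptpro (0.44). Within experiments 1 and 2, Plce1 (-0.78 and -0.016) and Ptpro (-0.16 and -0.74) were below 0 in both. The median log2 fold change of the 8 genes was -0.40, and that of all genes tested was -0.79. A typical gene of this fit thus had a lower value than a typical slit diaphragm gene. Markers of other cells were present in these wells: 14 endothelial markers summed to 136 and 4844 CPM in the diabetes pools, against 390.2 and 3082 CPM in the control pools, and 12 immune markers to 722 and 449 CPM in the diabetes pools, against 23.2 and 38 CPM in the control pools. Their part in the fitted values was not tested.

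In endothelial-like wells 7 of the 9 genes were tested and none was called, while the fit called 0.0306% of all genes. Tjp1, whose levels in this class are given above, had a log2 fold change of -0.22 ± 0.32 (SE; unadjusted p = 0.506, adjusted p = 1). It was the single gene of the 7 in which both diabetes pools lay below both control pools, against 14.2% of all genes. Cd2ap had a log2 fold change of 0.16 ± 0.45, which was -0.28 with no filter on wells. Nphs1, Magi2, Thsd7a, Ptpro and Plce1, which were low in this class, had values from -1.65 (Magi2) to -0.21 (Plce1). In mesangial-like wells all 9 were tested and none was called, against 0.00921% of all genes. Cd2ap had a log2 fold change of -1.60 ± 0.77 (SE; unadjusted p = 0.0592, adjusted p = 1) there. Cd2ap and Magi2 were the 2 genes lower in both diabetes pools, against 20.6% of all genes, and Tjp1 the 1 gene higher in both, against 12.1%. In mesangial-like wells Tjp1 was at 211 and 165 CPM in the diabetes pools, against 126 and 137 CPM in the control pools, a log2 fold change of 0.53 ± 0.66. Kirrel had 0.89 ± 1.24 there, and its log2 differences within experiments 1 and 2 were 0.93 and 0.81. Without diabetes replicate 1 its fitted change was -0.36, in a fit that leaves out the block and so ignores the pairing by experiment. Diabetes replicate 1 had 7 mesangial-like wells, and 1 of them gave 92.5% of its Cd2ap reads. Markers of fibroblasts, 6 genes, summed to 14103 and 1515 CPM in the diabetes pools, against 4172 and 1206 CPM in the control pools in these wells, and 10 mesangial markers to 6394 and 10316 CPM in the diabetes pools, against 14839 and 14069 CPM in the control pools. Fibroblast markers passed mesangial markers in diabetes replicate 1 alone, and their part in the values of Tjp1, Cd2ap and Kirrel was not tested. Without diabetes replicate 1, and without the block, the log2 fold change was -0.64 for Cd2ap and 0.47 for Tjp1.

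**Figure D4:**
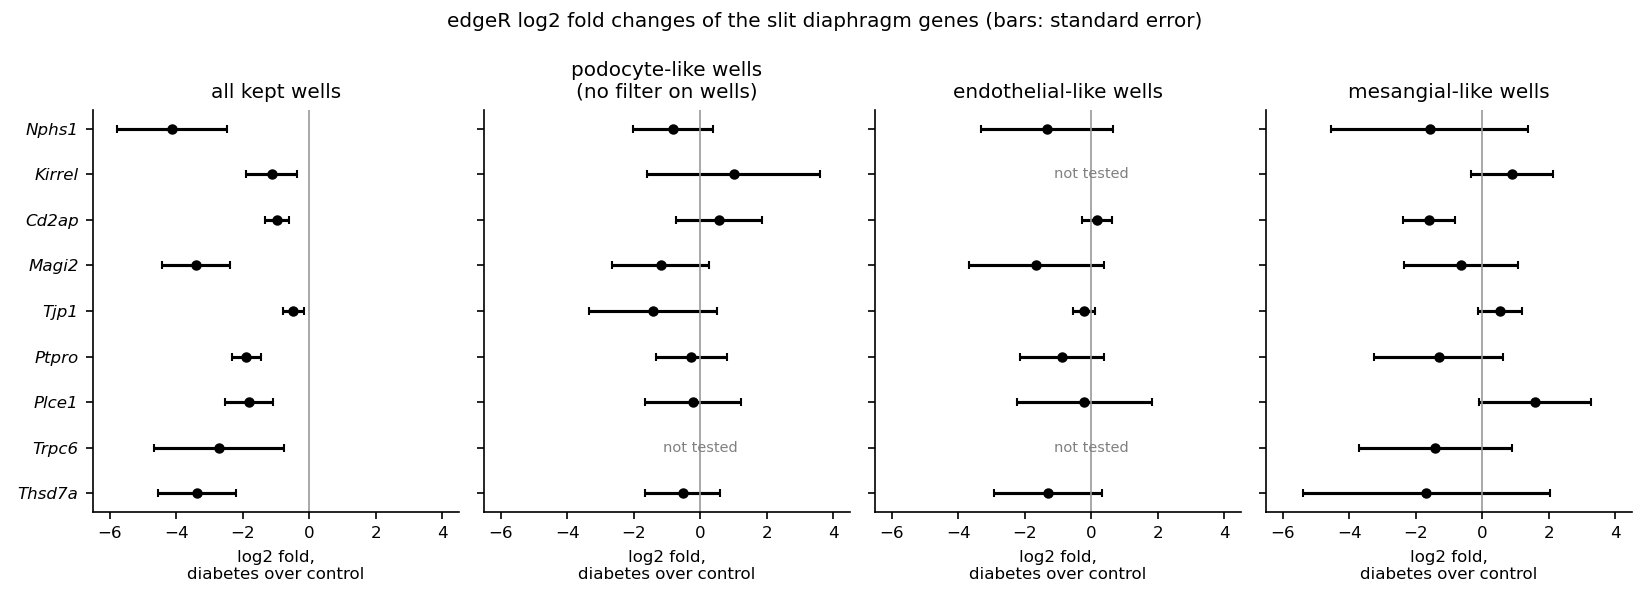
Log2 fold change of diabetes over control for each slit diaphragm gene in 4 fits of pool sums (points, with bars of 1 standard error; n = 2 pools a condition). In all kept wells the 9 points lie below 0, from -4.13 (Nphs1) to -0.48 (Tjp1), while in podocyte-like wells (no filter on wells) 6 of the 8 tested lie below 0; none passed an adjusted p of 0.05.

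Set against reads of podocyte markers rather than all reads, the 9 genes did not lie on one side. Per 1000 reads of the 14 podocyte markers in all kept wells, Nphs1 had 2.38 and 23.1 in the diabetes pools, against 42 and 33.4 in the control pools. Magi2 had 3.79 and 12.7 in the diabetes pools, against 19.7 and 19.5 in the control pools, and Thsd7a 9.14 and 24.7 in the diabetes pools, against 50.5 and 31.5 in the control pools. These 3 were lower in both diabetes pools, against 1.52% of all genes. The difference in experiment 2 was the smaller for each (log2 differences of -4.14 and -0.53 for Nphs1 in experiments 1 and 2). The marker sum was itself lower in both diabetes pools (1183 and 2974 CPM, against 9439 and 6631 CPM in the control pools). Genes read mainly in other cells thus tended to be higher per marker read, and the 1.52% reflects this choice of denominator. Cd2ap, Tjp1 and Kirrel, which other cells also express, were higher in both diabetes pools, as were 70.7% of all genes. Ptpro had 48.6 and 60.5 in the diabetes pools, against 38.5 and 64.7 in the control pools, and Plce1 14.8 and 22.1 in the diabetes pools, against 17.6 and 14.3 in the control pools, both with overlapping conditions. No exact p can fall under 0.333 here.

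The 14 markers were not read in podocyte-like wells alone, where the share of their reads was 7.95% and 60.1% in the diabetes pools, against 87.2% and 83.9% in the control pools. With the 11 markers that had at least 80% of their control reads in podocyte-like wells, a choice made after the data were seen, Nphs1 had 8.16 and 36.4 in the diabetes pools, against 61.3 and 50.6 in the control pools. Magi2 had 13 and 20 in the diabetes pools, against 28.8 and 29.5 in the control pools, and Thsd7a 31.3 and 38.9 in the diabetes pools, against 73.8 and 47.7 in the control pools. Plce1 was then higher in both diabetes pools, with 50.7 and 34.9, against 25.7 and 21.6 in the control pools. The shares of all genes lower and higher in both diabetes pools were not computed for the 11 markers. With the 14 they were 1.52% and 70.7%. In diabetes replicate 1, podocyte-like wells held 22% of the Plce1 reads. Mesangial-like wells held 37.3% of them, and smooth muscle or renin cell-like wells 37.3%. In empty wells with the same 11 markers, Nphs1 had 22.6 and 36.5 in the diabetes pools, against 67.8 and 53.4 in the control pools. There the conditions overlapped for Magi2, with 3.01 and 21 in the diabetes pools, against 21.4 and 17 in the control pools, and for Thsd7a, with 51.2 and 33.6 in the diabetes pools, against 84 and 34.7 in the control pools.

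A list of 30 other genes of the slit diaphragm and its linkers gave no call either. In all kept wells 28 were tested, 0 were called in either direction, 6 had an unadjusted p under 0.05 and were lower in diabetes, and the median log2 fold change was -0.34. The 3 of smallest p were Pla2r1, a receptor known as the main autoantigen of human membranous nephropathy, Actn4, an actin crosslinker of foot processes, and Pik3r1, a regulatory subunit of phosphoinositide 3-kinase. Pla2r1 was at 42.5 and 39 CPM in the diabetes pools, against 133 and 128 CPM in the control pools, with -1.62 ± 0.35 (SE; unadjusted p = 0.00295, adjusted p = 0.308). Actn4 was at 411 and 449 CPM in the diabetes pools, against 866 and 964 CPM in the control pools, with -1.03 ± 0.26 (SE; unadjusted p = 0.00648, adjusted p = 0.427). Pik3r1 was at 84.8 and 48.7 CPM in the diabetes pools, against 169 and 139 CPM in the control pools, with -1.20 ± 0.34 (SE; unadjusted p = 0.011, adjusted p = 0.509). In podocyte-like wells with no filter, 23 were tested and 0 called, with a median of -0.89. Myo1e, a membrane-linked myosin, was at 0 and 475 CPM in the diabetes pools, against 640.3 and 567 CPM in the control pools, with -2.90 ± 2.25 (SE; unadjusted p = 0.197, adjusted p = 1). Kirrel2, the neighbour of Nphs1, was at 0 and 0 CPM in the diabetes pools, against 6.17 and 8.86 CPM in the control pools, a gene near the limit of detection for which no fold change is given.

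Of the 14 podocyte markers, 0 were called in either fit. In all kept wells 8 had an unadjusted p under 0.05, all lower in diabetes, and the 3 of smallest p were Sema3g, the sialomucin Podxl and the matrix protein Npnt. Sema3g had a log2 fold change of -1.64 ± 0.35 (SE; unadjusted p = 0.00256, adjusted p = 0.282). For Podxl it was -1.20 ± 0.27 (SE; unadjusted p = 0.0037, adjusted p = 0.337), and for Npnt -2.44 ± 0.63 (SE; unadjusted p = 0.00796, adjusted p = 0.454). In podocyte-like wells with no filter, those of smallest p included Clic3 with -1.67 ± 1.09 (SE; unadjusted p = 0.125, adjusted p = 1) and Rab3b with -2.06 ± 1.77 (SE; unadjusted p = 0.244, adjusted p = 1).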

How the data were processed

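The values are expected counts per gene and well that the authors deposited as 1 table for each of 2 experiments; 74.1% and 79.3% of the non-zero values are whole. The submitters' processing notes name cutadapt 1.11, STAR 2.4.2a, BWA 0.7.17-r1188, featureCounts 1.5.1 and mm10, and no source used here gives the use of strand. No molecular identifiers were counted, so intervals cover counting error only. Of 45792 genes, 45229 were named through GENCODE M21.

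Wells imaged with 1 cell were used, which was the only step against doublets, and kept with at least 500 genes and at most 30% mitochondrial reads. They were clustered in scanpy 1.11.5 (2000 variable genes, 15 components, 15 neighbours, resolution 0.8) without the 9 genes and their partners, and named by marker lists. Counts were rounded after summing over the wells of a class in a pool, and CPM is relative to the reads of that sum. Sums were fitted with edgeR 4.0.16 (quasi-likelihood, TMM scaling, low-count filter, R 4.3.3), with the experiment, which the labels give for each pool, as the replicate block; p-values were adjusted by Benjamini-Hochberg over all genes tested. In the podocyte-like fit with no filter on wells, the spread of a typical gene was replaced by that shared over genes. DESeq2 1.42.0 was an alternative, and the scripts were tested on simulated data. The planned podocyte-like fit needed 2 wells a pool; 1 pool had 1, so wells without a filter were used, which held 4 in that pool.

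The 9 genes and all lists were chosen with earlier results of these data known. Named genes are the 9, the 3 of smallest p of each other list in the podocyte-like fit and in that of all kept wells, and the 10 genes most like Nphs1 with at least 20 CPM in a podocyte-like pool. A gene that these rules name is not reported here. Promoter windows are from RefSeq on GRCm38.p6. Alternatives were other scalings, filters, clusterings, thinned reads and leaving out each pool.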

Additional observations from a re-analysis of the deposited data

Results flagged for a closer look

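Log2 differences of CPM (diabetes minus control) taken within each experiment had opposite signs in different cell classes for 2 genes. For Tjp1 they were -2.92 and -0.41 in experiments 1 and 2 in podocyte-like wells with no filter on wells, and 0.74 and 0.27 in mesangial-like wells, so the mean of the first class was -2.17 relative to the second. In endothelial-like wells Tjp1 had -0.24 and -0.28, and the mesangial-like mean was 0.76 above it. For Plce1 the differences were -0.78 and -0.016 in podocyte-like wells with no filter and 1.39 and 1.72 in mesangial-like wells, a mean of -1.95 for the first relative to the second. In kept podocyte-like wells Plce1 was instead at 1403 and 935 CPM in the diabetes pools, against 624 and 579.8 CPM in the control pools. That is the direction of mesangial-like wells, though the 1403 CPM comes from 1 well. The difference between classes was not tested in any of the 3. The mesangial-like wells of diabetes replicate 1, which enter all 3, held 14103 CPM of fibroblast markers and 6394 CPM of mesangial markers, whose part was not tested; in the other 3 pools mesangial markers were the higher. In diabetes replicate 1, 1 mesangial-like well held 100% of the Plce1 reads of its class.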

How the results depend on the processing

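Pools were paired by experiment. Without the replicate block, genes called numbered 2 in podocyte-like wells (0 with it), 1 in endothelial-like wells (4 with it), 0 in mesangial-like wells (1 with it) and 1 in all kept wells (12 with it), and Plce1 in endothelial-like wells (0.11), Nphs1 (0.18) and Trpc6 (0.27) in mesangial-like wells turned sign in log2 fold change. DESeq2 called 14, 90, 69 and 562 genes in the same order, and 3 slit diaphragm genes in all kept wells. Without a filter on low counts 42 genes were called in endothelial-like, 29 in mesangial-like and 36 in all kept wells. RLE scaling gave 1 and 7 calls in endothelial-like and mesangial-like wells. With wells thinned to 10000 reads the counts were 4, 1, 0 and 82, Plce1 in podocyte-like wells was 0.039, Ptpro in endothelial-like wells 0.16, and median podocyte-like levels were 80.6 CPM for Kirrel and 0 CPM for Trpc6. Clustering at resolution 1.2 gave 1 call in endothelial-like and 2 in mesangial-like wells. A mitochondrial limit of 15% gave 0 calls in mesangial-like and in all kept wells, with Magi2 in mesangial-like wells at 0.066. No filter on wells gave 1, 0 and 0 calls in endothelial-like, mesangial-like and all kept wells, with Cd2ap in endothelial-like wells at -0.28. Keeping the 9 genes in the clustering gave 0 calls in mesangial-like wells and Cd2ap in endothelial-like wells at -0.20.

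Leaving out 1 pool at a time (without the block, the lone pool assumed to vary like the others) gave 0 to 1172 genes called in podocyte-like, 9 to 79 in endothelial-like, 3 to 40 in mesangial-like and 9 to 170 in all kept wells, where 0 to 5 slit diaphragm genes were called. Counts over all kept wells were 92 without diabetes replicate 1, 170 without diabetes replicate 2, 43 without control replicate 1 and 9 without control replicate 2. Log2 fold changes that turned sign ran over these ranges: in podocyte-like wells Kirrel -0.15 to 2.03, Cd2ap -0.25 to 1.37, Ptpro -0.93 to 0.44, Plce1 -0.62 to 0.78; in endothelial-like wells Nphs1 -3.42 to 0.55, Magi2 -3.82 to 0.17, Ptpro -3.63 to 1.45, Plce1 -2.24 to 1.44; in mesangial-like wells Nphs1 -9.91 to 1.16, Kirrel -0.36 to 2.15, Ptpro -4.48 to 0.93, Plce1 -0.094 to 3.32, Trpc6 -10.14 to 1.48, Thsd7a -9.79 to 0.66; in all kept wells Trpc6 -10.64 to 0.81. The lowest of these for Nphs1, Trpc6 and Thsd7a come from a pool at or near 0 reads and depend on the prior count. In podocyte-like wells the counts were 23 without diabetes replicate 1, 255 without diabetes replicate 2, 1172 without control replicate 1 and 0 without control replicate 2. In podocyte-like kept wells without diabetes replicate 1, 37 genes were called, Ptpro was 0.090 and Plce1 0.78. With the 11 stricter podocyte markers, added after the data were seen, the mean log2 difference per marker read was 0.76 for Ptpro and 0.83 for Plce1. In all, 32 of 381 log2 fold changes of the 9 genes turned sign, 24 of them when a pool was left out, and the cause was not tested.

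With 2 pools a condition, 1 podocyte-like well in diabetes replicate 1 and no molecular identifiers, differences within podocytes of the size fitted here were not detectable. The podocyte-like fit under resolution 1.2, the 15% limit and clustering with the 9 genes was not run, since diabetes replicate 1 again held 1 such well.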
